A study of Homo sapiens with 12 samples.

Results

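Regulators of G protein signalling (RGS proteins) were read on 9 genes, RGS2, RGS3, RGS4, RGS5, RGS10, RGS16, RGS17, RGS19 and RGS20, in MDA-MB-231, an established cell line derived from a human metastatic breast cancer. The 9 genes had 23 probe sets with that single symbol, of 19775 genes and 54613 probe sets on the arrays once control probe sets were set aside. They were selected on differences between the groups seen earlier on these same arrays, so their values are given as a description, with no p-value in any comparison. Counts of these genes past the threshold appear once, beside the share of all genes past it. Sharp1 cells overexpressed Sharp1, the transcriptional repressor encoded by BHLHE41. shHIF cells carried retroviral hairpins against HIF1a and HIF2a, and control cells a retroviral hairpin against GFP (shGFP). Each group had 4 arrays, lettered A to D and labelled as biological replicates without saying whether they came from separate cultures, so that p-values measure only the spread between these arrays. All cells were grown under normal culture conditions, and no hypoxia is named in the labels. The sources used here do not give the vector of the Sharp1 cells or a matched empty-vector control, and both manipulated groups were set against the same GFP hairpin arrays.

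A G protein is switched on when an activated receptor makes its alpha subunit exchange GDP for GTP, and it is switched off when the alpha subunit hydrolyses that GTP. RGS proteins bind the active alpha subunit and speed this hydrolysis, which shortens the signal of chemokine, protease, lipid and hormone receptors. Members of the R4 subfamily (RGS2, RGS3, RGS4, RGS5 and RGS16) act on Gi or Gq subunits, RGS10 is a short R12 protein that acts on Gi, and the RZ subfamily (RGS17, RGS19 and RGS20) acts on Gz and Gi. RGS4, RGS5 and RGS16 begin with methionine and cysteine and are known substrates of the cysteine N-degron pathway, which degrades them in the presence of oxygen, so their protein levels need not follow their mRNA.

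Values below are log2 expression values per probe set, so that a difference of 1 is a 2-fold difference in signal. The median probe set read 5.41, and levels of different probe sets were not compared with each other. A gene was represented by its brightest probe set unless another is named. Differences are of group means, with standard errors (SE) from limma, a linear-model method for arrays, and a gene was called at a Benjamini-Hochberg adjusted p under 0.05 over all 19775 genes. In these bulk RNA samples, a change in the share of cells that carry a transcript and a change in RNA per cell cannot be told apart.

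BHLHE41 averaged 9.24 ± 0.29 in Sharp1 cells, against 3.89 ± 0.073 in control cells (SD, n = 4 each), on the probe set with the largest difference. Another of its 4 probe sets was higher by 1.59 in Sharp1 cells, and 1 more ran the other way, at 4.56 ± 0.16 in Sharp1 cells and 6.62 ± 0.20 in control cells. EPAS1, which encodes HIF2a, averaged 6.68 ± 0.19 in shHIF cells and 9.53 ± 0.056 in control cells, and HIF1A 12.05 ± 0.050 in shHIF cells and 12.78 ± 0.020 in control cells. EPAS1 was also lower in Sharp1 cells, at 8.82 ± 0.017. Of 6 mesenchymal-like markers of this line, 5 averaged above the median probe set. Among them, vimentin (VIM) averaged 14.55, 14.22 and 14.48 in Sharp1, shHIF and control cells, while SPARC read only 3.98, 3.97 and 3.67. Of 7 luminal breast markers, 5 also averaged above the median probe set, among them the keratin KRT18, at 13.16, 13.04 and 13.12, and GATA3, at 8.45, 8.82 and 8.57. E-cadherin (CDH1), at 3.97, 4.00 and 4.06, and PGR, at 3.52, 3.43 and 3.48, did not. Of 5 leukocyte markers measured, 0 averaged above the median probe set. Spike-in signal was 10.39 and 10.45 on shHIF arrays A and D, against 10.63 to 10.81 elsewhere, and Sharp1 array B had a ribosomal RNA signal of 12.16, against at least 13.14 elsewhere. The difference between 3' and 5' actin probe sets, a sign of RNA quality, was 0.61, 0.56, 0.85 and 0.68 on Sharp1 arrays A to D, 0.94, 0.90, 0.91 and 0.62 on shHIF arrays and 0.59, 0.72, 0.67 and 0.74 on control arrays. It was thus above every control array on 3 of 4 shHIF arrays and on Sharp1 array C, and its part in the differences below was not tested.

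RGS4 had by far the widest span of group means among the 9 genes. It is best known from neurons, where it limits Gi and Gq signalling. RGS4 read 10.75, 10.74, 10.75 and 10.72 on the Sharp1 arrays A to D, 8.49, 8.62, 8.55 and 8.28 on the shHIF arrays and 8.37, 8.43, 8.37 and 8.55 on the control arrays (probe set 204337_at). The Sharp1 arrays lay wholly above the other 8, and the shHIF and control arrays overlapped. The mean of the Sharp1 arrays was 10.74 ± 0.014 (SD, n = 4), that of shHIF 8.49 ± 0.15 and that of control 8.43 ± 0.087. RGS4 was thus 2.31 (SE 0.063) higher in Sharp1 cells than in control, or 4.96-fold, and differed by 0.056 (SE 0.063) between shHIF and control. The other RGS4 probe sets showed the same order for Sharp1, with 1.81 (SE 0.068) on 204338_s_at and 1.76 (SE 0.086) on 204339_s_at. They parted in shHIF cells. On 204338_s_at the shHIF arrays, at 7.13, 7.19, 7.07 and 7.19, lay wholly above the control arrays, at 6.74, 6.79, 6.62 and 6.90. On 204339_s_at the groups overlapped, with a difference of -0.088 (SE 0.086). Among 6 neuron markers, limma called 1 higher (TUBB3, 0.22) and 1 lower (SYT1, -0.72) in Sharp1 cells, where 27.2% of all genes were called. The rest ran from -0.18 for SNAP25 to 0.12 for RBFOX3. In shHIF cells SYT1 was called higher and MAP2 lower, where 30.8% of all genes were called. The part of these markers in the RGS4 values was not tested.

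RefSeq lists 4 start sites for RGS4 on chromosome 1, and windows of 300 bases around each (250 before and 50 after the start, GRCh38.p14) were searched on both strands for CACGTG, the E-box that Sharp1 binds, and for ACGTG and GCGTG, the cores of HIF sites. Only the first window (chr1:163068621-163068920, plus strand) held a match, a GCGTG at bases 4 to 8 after the start. It is shown because RGS4 had the largest difference in Sharp1 cells, with matches in capitals.
RGS4: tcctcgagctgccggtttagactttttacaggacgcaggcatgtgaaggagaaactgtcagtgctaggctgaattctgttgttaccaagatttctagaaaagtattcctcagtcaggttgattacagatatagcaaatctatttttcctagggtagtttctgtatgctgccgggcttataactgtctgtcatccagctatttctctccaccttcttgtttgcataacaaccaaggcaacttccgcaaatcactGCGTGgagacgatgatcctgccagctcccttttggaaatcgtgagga

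**Figure D1:**
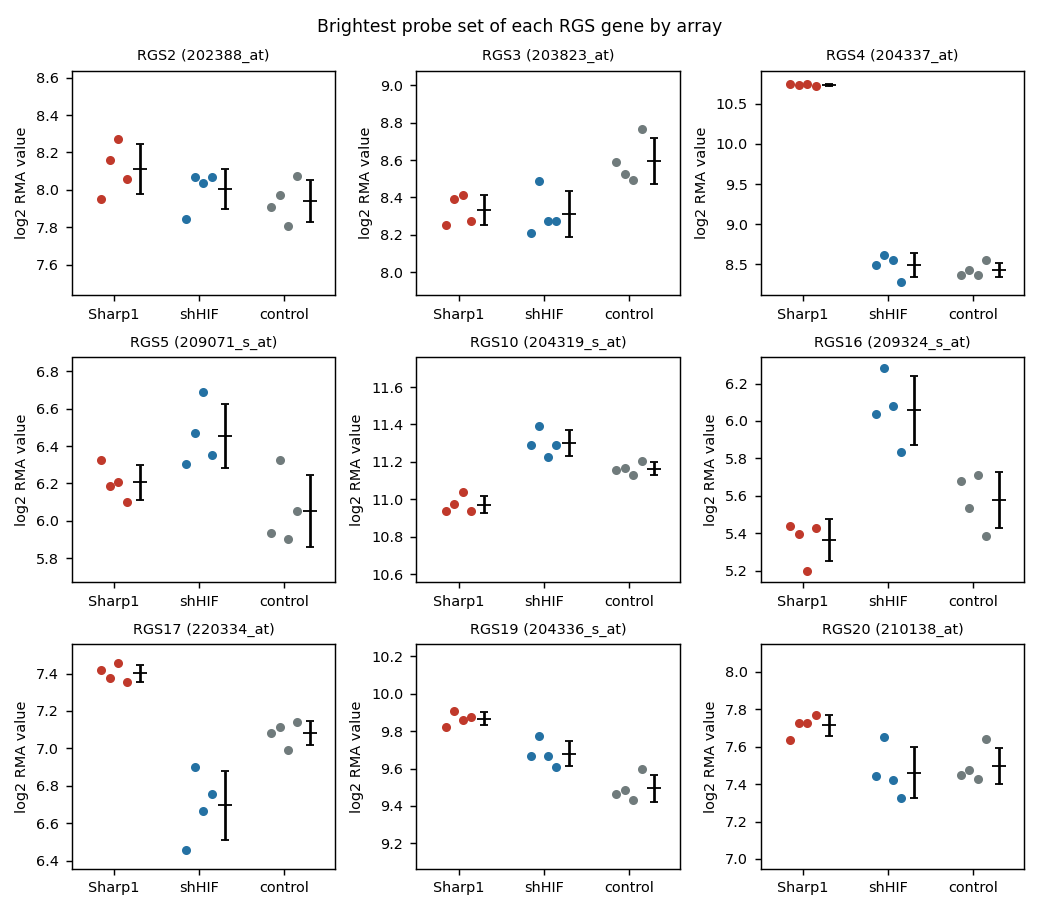
Log2 value of the brightest probe set of each of the 9 RGS genes (y axis) on each array of the Sharp1, shHIF and control groups (x axis). Points are arrays A to D from left to right, and the bar beside them is the mean and SD (n = 4); the RGS4 panel spans a wider range than the others. The Sharp1 arrays of RGS4, at 10.72 to 10.75, stand wholly above the shHIF and control arrays.

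RGS5 and RGS16, the other R4 members that begin with methionine and cysteine, had their highest means in shHIF cells. RGS16, a regulator of Gi and Gq known from lymphocytes and retina, read 5.44, 5.40, 5.20 and 5.43 on the Sharp1 arrays A to D, 6.04, 6.28, 6.08 and 5.83 on the shHIF arrays and 5.68, 5.54, 5.71 and 5.39 on the control arrays (209324_s_at). All 4 shHIF arrays were above all control and all Sharp1 arrays, and Sharp1 and control overlapped. RGS16 averaged 6.06 ± 0.19 in shHIF cells and 5.58 ± 0.15 in control cells (SD, n = 4 each), a difference of 0.48 (SE 0.10). In Sharp1 cells it averaged 5.36 ± 0.11, which differed from control by -0.22 (SE 0.10) and from shHIF by -0.69 (SE 0.10). A dimmer probe set, 209325_s_at, gave 0.48 (SE 0.11) for shHIF against control, again with no overlap, and -0.055 (SE 0.11) for Sharp1 against control. The dimmest, 242212_at, read 3.19, 3.29, 3.17 and 3.39 in Sharp1 cells, 3.61, 3.38, 3.30 and 3.64 in shHIF cells and 3.55, 3.43, 3.54 and 3.46 in control cells, where Sharp1 lay wholly below control and shHIF overlapped control. All 3 RGS16 probe sets read close to the array median or lower, and their differences therefore come from dim signal.

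The RGS16 promoter (chr1:182604340-182604639, minus strand, GRCh38.p14) held 1 ACGTG at bases -238 to -234 and 2 GCGTG at -194 to -190 and -160 to -156 from the start. It is shown because RGS16 was the member with the largest difference in shHIF cells, with both motifs (on either strand) in capitals.
RGS16: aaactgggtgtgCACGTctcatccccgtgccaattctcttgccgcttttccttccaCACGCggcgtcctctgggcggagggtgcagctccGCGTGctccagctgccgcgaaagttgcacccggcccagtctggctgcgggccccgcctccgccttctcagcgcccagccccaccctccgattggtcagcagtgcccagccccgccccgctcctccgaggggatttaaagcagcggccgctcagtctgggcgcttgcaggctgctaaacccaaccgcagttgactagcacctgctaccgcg

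RGS5, known as a marker of pericytes and vascular smooth muscle, had 6 probe sets. The brightest, 209071_s_at, read 6.32, 6.19, 6.21 and 6.10 on the Sharp1 arrays A to D, 6.31, 6.47, 6.69 and 6.35 on the shHIF arrays and 5.93, 6.33, 5.90 and 6.05 on the control arrays. shHIF differed from control by 0.40 (SE 0.10) and Sharp1 from control by 0.15 (SE 0.10), and neighbouring groups overlapped, with control array B at 6.33 inside the shHIF range. The 6 probe sets ranged from -0.11 to 0.40 for shHIF against control and from -0.16 to 0.15 for Sharp1 against control. Of them, 218353_at separated shHIF (4.08, 4.19, 4.21 and 4.13) from control (3.71, 4.03, 4.04 and 3.79), on dim readings. Among 9 pericyte and smooth muscle markers, limma called 3 higher and 0 lower in Sharp1 cells, where 27.2% of all genes were called. These were CSPG4, MCAM and PDGFRB, by 0.71, 0.45 and 0.32, and the PDGFRB arrays overlapped control. The rest were not called and ran from -0.14 for NOTCH3 to 0.20 for ACTA2. In shHIF cells 0 were called higher and 0 lower, where 30.8% of all genes were called. The mean log2 value over that list was 6.19 to 6.29 on Sharp1 arrays, 6.07 to 6.08 on shHIF arrays and 5.997 to 6.11 on control arrays, and its part in the RGS5 values was not tested.

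RGS5 is the next protein-coding gene after RGS4 on chromosome 1 and is transcribed from the opposite strand. Against control, the Sharp1 difference was 2.31 for RGS4 and 0.15 for RGS5. RGS16 lies next to RGS8, and RGS2 next to RGS13, also on chromosome 1. RGS8, at 4.57 ± 0.084, 4.88 ± 0.34 and 4.73 ± 0.048 in Sharp1, shHIF and control cells, and RGS13, at 2.76 ± 0.053, 2.68 ± 0.10 and 2.77 ± 0.092, read below the median probe set and were not called in any comparison.

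RGS2 and RGS3 showed small differences from control on their brightest probe sets. RGS2, which acts mainly on Gq and is known for its part in blood pressure control, read 7.95, 8.16, 8.27 and 8.06 on the Sharp1 arrays A to D, 7.84, 8.07, 8.04 and 8.07 on the shHIF arrays and 7.91, 7.97, 7.80 and 8.07 on the control arrays (202388_at). The 3 groups overlapped, with differences of 0.17 (SE 0.076) for Sharp1 and 0.065 (SE 0.076) for shHIF against control. RGS3, a regulator of Gi and Gq, was lower in both manipulated groups on its brightest probe set, 203823_at, which read 8.25, 8.39, 8.42 and 8.28 on the Sharp1 arrays A to D, 8.21, 8.49, 8.28 and 8.27 on the shHIF arrays and 8.59, 8.53, 8.49 and 8.77 on the control arrays. All control arrays lay above all Sharp1 and above all shHIF arrays there, although shHIF array B and control array C both rounded to 8.49. RGS3 differed from control by -0.26 (SE 0.071) in Sharp1 cells and by -0.28 (SE 0.071) in shHIF cells. Its dimmer probe sets went the other way in shHIF cells, at 0.36 (SE 0.12) on 220300_at and 0.24 (SE 0.11) on 232223_at. For Sharp1 against control they read -0.21 and -0.17. For Sharp1 against shHIF they read -0.57 (SE 0.12) and -0.40 (SE 0.11), with all Sharp1 arrays below all shHIF arrays. On 203823_at that difference was 0.022 (SE 0.071), with overlap. No single direction is therefore given for RGS3 in shHIF cells.

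RGS10 and RGS17 had the groups in opposite orders. RGS10, which is known from microglia, macrophages and platelets and acts on Gi, read 10.94, 10.97, 11.04 and 10.94 on the Sharp1 arrays A to D, 11.29, 11.39, 11.23 and 11.29 on the shHIF arrays and 11.16, 11.17, 11.13 and 11.21 on the control arrays (204319_s_at). The order was shHIF, then control, then Sharp1, with no overlap between neighbours. The differences were small, at -0.19 (SE 0.040) for Sharp1 and 0.14 (SE 0.040) for shHIF against control. Its other probe sets, 204316_at and 214000_s_at, differed from control by -0.042 and -0.0085 in Sharp1 cells and by -0.041 and -0.013 in shHIF cells, with overlap throughout. RGS17, an RZ protein known to be raised in lung and prostate tumours, has 1 probe set, 220334_at. It read 7.42, 7.38, 7.45 and 7.35 on the Sharp1 arrays A to D, 6.46, 6.90, 6.67 and 6.76 on the shHIF arrays and 7.08, 7.11, 6.99 and 7.14 on the control arrays. All Sharp1 arrays lay above all control arrays, and all control arrays above all shHIF arrays. RGS17 was 0.32 (SE 0.082) higher in Sharp1 cells than in control. In shHIF cells it differed from control by -0.39 (SE 0.082), which left 76.5% of the control signal. For Sharp1 against shHIF the difference was 0.71 (SE 0.082), or 1.63-fold. The lowest shHIF reading, 6.46, was on array A, one of the 2 with low spike-in signal, and without arrays A and D the shHIF difference from control was -0.30.

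RGS19 and RGS20 complete the RZ subfamily. RGS19, also called GAIP, was first known as a partner of a Gi alpha subunit. It read 9.82, 9.91, 9.86 and 9.88 on the Sharp1 arrays A to D, 9.67, 9.77, 9.67 and 9.61 on the shHIF arrays and 9.46, 9.49, 9.43 and 9.60 on the control arrays (204336_s_at, its only probe set). The order was Sharp1, then shHIF, then control, with no overlap, although shHIF array D at 9.61 and control array D at 9.60 nearly met. RGS19 differed from control by 0.37 (SE 0.050) in Sharp1 cells and by 0.18 (SE 0.050) in shHIF cells. RGS20, the regulator of Gz also called RGSZ1, had 2 probe sets that disagreed. On 210138_at it read 7.63, 7.72, 7.72 and 7.77 on the Sharp1 arrays A to D, 7.44, 7.65, 7.42 and 7.33 on the shHIF arrays and 7.45, 7.48, 7.43 and 7.64 on the control arrays. Sharp1 differed from control there by 0.22 (SE 0.074), with Sharp1 array A at 7.63 just under control array D at 7.64. On 1569303_s_at it read 6.47, 6.81, 6.55 and 6.60 on the Sharp1 arrays A to D, 7.21, 6.96, 7.07 and 6.92 on the shHIF arrays and 6.56, 6.68, 6.61 and 6.76 on the control arrays. There shHIF lay wholly above control, by 0.39 (SE 0.086), and Sharp1 against control was -0.049 (SE 0.086). Between Sharp1 and shHIF the pair gave 0.25 and -0.43, so no single direction is given for RGS20.

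A CACGTG E-box was found in 2 of the 18 promoter windows of 8 members (11.1%), 1 of RGS3 and 1 of RGS19. It was in 7.26% of all 35116 windows in RefSeq and in 8.34% of those of protein-coding genes, as the members are. RGS20 was not searched. The second RGS19 window (chr20:64079469-64079768, minus strand, GRCh38.p14) had it at bases -223 to -218 and a GCGTG at -179 to -175, and is shown because it holds the E-box and RGS19 has a single probe set with no overlap between groups, with motifs in capitals.
RGS19: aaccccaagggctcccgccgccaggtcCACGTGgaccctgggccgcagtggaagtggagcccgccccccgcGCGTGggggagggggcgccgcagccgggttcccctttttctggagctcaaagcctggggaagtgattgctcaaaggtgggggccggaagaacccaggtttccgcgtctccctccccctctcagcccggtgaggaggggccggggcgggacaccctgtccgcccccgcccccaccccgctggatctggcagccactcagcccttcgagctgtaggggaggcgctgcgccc

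The core ACGTG, which lies within CACGTG as well, was in 22.2% of the 18 windows, against 21.4% of all and 23% of protein-coding windows. GCGTG was in 33.3%, against 36.5% of all and 43% of protein-coding windows. CANNTG, any E-box, was in 66.7%, against 68.7% of all and 65.1% of protein-coding windows. The single RGS17 window held none of these 4 motifs. A match is a string of letters, and nothing is drawn from it about binding.

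**Figure D2:**
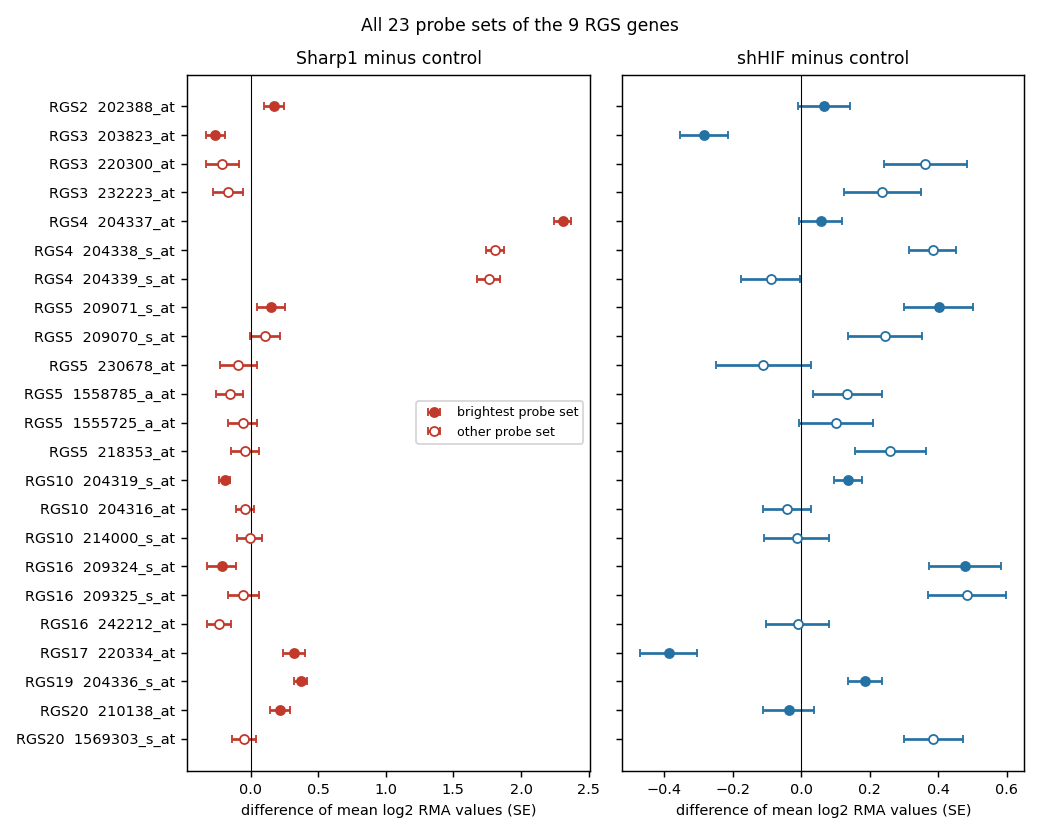
Difference of mean log2 values for each of the 23 RGS probe sets (rows), for Sharp1 minus control on the left and shHIF minus control on the right, with SE bars; the x axes have different ranges. Filled points are the brightest probe set of a gene. The 3 RGS4 probe sets stand at 1.76 to 2.31 on the left. On the right, the RGS3, RGS4, RGS5, RGS10, RGS16 and RGS20 probe sets lie on both sides of 0.

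Over the 9 genes, the median difference was 0.17 for Sharp1 and 0.065 for shHIF against control, beside -0.0018 and 0.047 over all genes tested, and 0.11 for Sharp1 against shHIF, beside -0.060. limma called 6 of the 9 in Sharp1 cells, 4 higher (RGS4, RGS17, RGS19 and RGS20) and 2 lower (RGS3 and RGS10), where 27.2% of all genes were called, 15.3% higher and 11.8% lower. In shHIF cells 6 were called, 4 higher (RGS5, RGS10, RGS16 and RGS19) and 2 lower (RGS3 and RGS17), where 30.8% of all genes were called, 17.6% higher and 13.2% lower. For Sharp1 against shHIF, 6 were called, 4 higher (RGS4, RGS17, RGS19 and RGS20) and 2 lower (RGS10 and RGS16), where 38.4% of all genes were called, 18% higher and 20.4% lower. These calls are of the brightest probe set of each gene alone, and other probe sets can differ. For RGS3 in shHIF cells and for RGS20 they did, and no single direction is given there. RGS5 on 230678_at (-0.11), RGS10 on 204316_at and 214000_s_at (-0.041 and -0.013) and RGS16 on 242212_at (-0.010) also ran against the shHIF calls, with overlap. In Sharp1 against shHIF, RGS10 was 0.0044 on 214000_s_at, again with overlap. Because the members were picked for their differences, nothing is read from these counts. Correlations between members over the 12 arrays, which share the same 3 groups, were highest for RGS4 with RGS19 (r = 0.85) and lowest for RGS16 with RGS17 (r = -0.85). RGS10 went with RGS16 (r = 0.81) and against RGS4 (r = -0.84).

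RGS4 alone among the members had group means that spanned at least 1 on the log2 scale. Of the 617 other genes with such a span, F2RL2 was most like it over the 12 arrays (Pearson r = 0.996), followed by LYPD6 and MAMDC2 (r = 0.995 each). F2RL2 encodes PAR3, a thrombin receptor of the protease-activated family, and LYPD6 a membrane-anchored protein that modulates nicotinic receptors. F2RL2 averaged 7.996 ± 0.074 in Sharp1 cells, 6.02 ± 0.16 in shHIF cells and 5.95 ± 0.10 in control cells (SD, n = 4 each). LYPD6 averaged 8.66, 7.41 and 7.37, and MAMDC2 7.78, 6.27 and 6.32, in the same groups. In all 4 genes the Sharp1 arrays lay wholly above the rest, while shHIF and control overlapped. The genes were picked for their likeness to RGS4 on these same arrays, so the shared pattern follows from that choice.

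**Figure D3:**
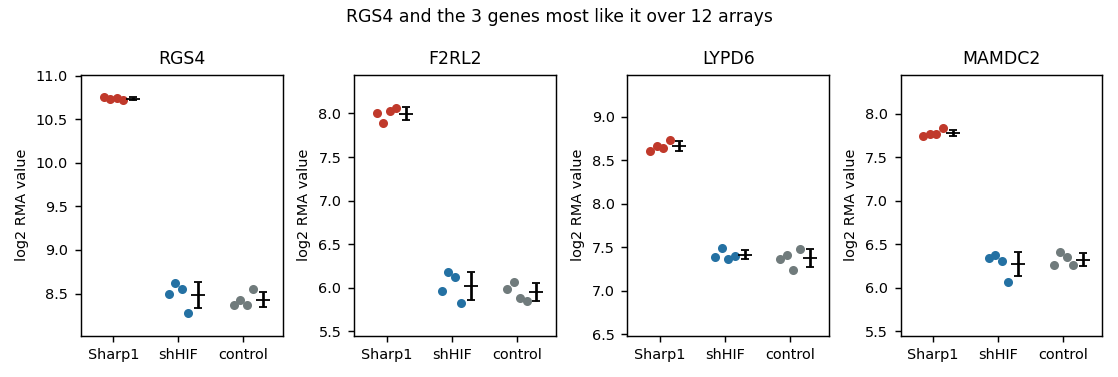
Log2 values (y axis) of RGS4 and of the 3 genes whose values correlate best with it, on the Sharp1, shHIF and control arrays (x axis), with arrays A to D as points and the mean and SD beside them (n = 4). In each panel the Sharp1 arrays stand apart, from a mean difference against control of 1.29 for LYPD6 to 2.31 for RGS4. The shared pattern follows from the choice of genes by correlation.

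Among the other RGS genes, RGS7 had the smallest adjusted p. Of 13 other RGS family and RGS-binding protein genes measured, 1 was called in Sharp1 cells (RGS7, higher), 2 in shHIF cells (RGS7 and RGS14, higher), and in Sharp1 against shHIF RGS7 was higher and RGS6 lower, where 27.2%, 30.8% and 38.4% of all genes were called. RGS7, an R7 protein that works in a complex with the beta subunit GNB5 and is known from brain, averaged 9.55 ± 0.064 in Sharp1 cells, 9.38 ± 0.065 in shHIF cells and 8.88 ± 0.034 in control cells. It rose by 0.67 in Sharp1 cells (SE 0.049, limma adjusted p = 4.66e-11) and by 0.50 in shHIF cells (adjusted p = 1.36e-08), with no overlap of arrays in either. Of its 3 probe sets, 2 were called higher in each of these comparisons. The RGS7 difference between Sharp1 and shHIF, 0.17 (adjusted p = 0.00713), was 0.14 (adjusted p = 0.0644) without shHIF arrays A and D and 0.094 (adjusted p = 0.305) with the mean of its probe sets. The RGS14 rise of 0.27 in shHIF cells (adjusted p = 0.0325) was lost without any 1 of shHIF arrays A, B and D and control arrays B and D (adjusted p = 0.0613 to 0.130). It was called on 1 of 3 probe sets, and their mean differed by 0.079 (adjusted p = 0.390). The RGS6 difference of -0.26 (adjusted p = 0.0288) was lost without any 1 of shHIF array A and Sharp1 arrays A and C (adjusted p = 0.0662 to 0.136).

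Counts in the lists below are read against all genes, of which 15.3% were called higher and 11.8% lower in Sharp1 cells, and 17.6% higher and 13.2% lower in shHIF cells. Nothing particular to a list is drawn from them. Among the substrates, 4 of 16 G alpha subunit genes rose and 2 fell in Sharp1 cells, and 3 rose and 2 fell in shHIF cells. GNAQ, the alpha subunit that activates phospholipase C, rose by 0.46 in Sharp1 cells (limma adjusted p = 8.3e-08) and differed by -0.063 in shHIF cells. GNAI2, an inhibitory subunit, rose by 0.29 in Sharp1 cells (adjusted p = 0.000224). GNA13, of the G12 and G13 class, and GNA15, of the Gq class, fell by 0.31 and 0.29 there (adjusted p = 9.08e-08 and 0.00146). GNAI1, another inhibitory subunit, averaged 8.50 ± 0.080 in Sharp1 cells, 7.61 ± 0.22 in shHIF cells and 8.24 ± 0.056 in control cells. It rose by 0.26 in Sharp1 cells and fell by 0.63 in shHIF cells (adjusted p = 0.0146 and 8.15e-07), and Sharp1 exceeded shHIF by 0.89 (adjusted p = 1.19e-09). GNAI3 fell by 0.23 and GNA12 rose by 0.21 in shHIF cells (adjusted p = 3.3e-06 and 9.14e-05), GNA12 on 1 of its 2 probe sets.

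Of 17 beta and gamma subunit genes, 6 rose and 1 fell in Sharp1 cells, and 2 rose and 3 fell in shHIF cells. GNG11, a gamma subunit, rose most, by 0.71 in Sharp1 cells and 0.45 in shHIF cells (adjusted p = 1.49e-11 and 6.35e-08). The shHIF rise was called on 1 of its 2 probe sets, and the mean of both differed by 0.16 (adjusted p = 0.210). GNG5 fell by 0.28 in shHIF cells (adjusted p = 8.92e-07). Of 16 proteins with a distant RGS domain, 1 rose and 2 fell in Sharp1 cells and 4 rose and 3 fell in shHIF cells.

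Of 8 other regulators of G alpha measured, 1 rose and 4 fell in Sharp1 cells, and 1 rose and 1 fell in shHIF cells. CCDC88C, a non-receptor activator of Gi, fell by 0.83 and the arrestin ARRB1, which ends receptor signalling, by 0.67 in Sharp1 cells (adjusted p = 1.53e-07 and 3.11e-07). The ARRB1 fall was called on 4 of its 7 probe sets. GPSM2, a GoLoco protein of the mitotic spindle, was -0.54 in Sharp1 against shHIF (adjusted p = 2.52e-10).

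Upstream, 7 of 44 receptors measured rose and 8 fell in Sharp1 cells, and 10 rose and 3 fell in shHIF cells, the first of these near the 15.3% of all genes called higher. F2RL2 rose by 2.05 (SE 0.086, adjusted p = 1.38e-15) in Sharp1 cells, the largest change of the 154 pathway genes measured, on 1 of its 2 probe sets. ADORA2B, a receptor for adenosine, fell by 0.90 in Sharp1 cells and rose by 0.41 in shHIF cells (adjusted p = 6.12e-15 and 1.74e-08), which put Sharp1 below shHIF by 1.31. The nucleotide receptor P2RY2 fell in both, by 0.79 and 0.39 (adjusted p = 2.28e-08 and 0.000498). In shHIF cells the endothelin receptor EDNRB rose by 0.80 and the prostaglandin receptor PTGER4 by 0.53, while PTGER2 fell by 0.77 (adjusted p = 1.13e-11, 1.23e-07 and 2.12e-05). The EDNRB rise was called on 2 of its 3 probe sets and the PTGER4 rise on 1 of its 2.

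Downstream, 5 of 31 effectors measured rose and 1 fell in Sharp1 cells, and 2 rose and 6 fell in shHIF cells. PRKAR2B, a regulatory subunit of protein kinase A, averaged 8.24 ± 0.088 in Sharp1 cells, 7.07 ± 0.28 in shHIF cells and 7.92 ± 0.081 in control cells. It rose by 0.33 in Sharp1 cells and fell by 0.85 in shHIF cells (adjusted p = 0.0108 and 1.48e-07). PDE4B, which breaks down cyclic AMP, rose by 0.86 in shHIF cells (adjusted p = 7.88e-06), on 1 of 3 probe sets and from a dim 4.89 in control. PDE4D, of the same enzyme family, fell by 0.38 in Sharp1 cells (adjusted p = 0.000564), on 2 of its 6 probe sets.

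Of the 9 cysteine N-degron genes, 2 rose and 1 fell in Sharp1 cells, and 1 rose and 2 fell in shHIF cells. ADO, the dioxygenase that oxidises the exposed cysteine, averaged 9.90 ± 0.11 in Sharp1 cells, 10.12 ± 0.081 in shHIF cells and 9.92 ± 0.018 in control cells. It rose by 0.20 in shHIF cells (adjusted p = 0.00317, or adjusted p = 0.0590 without shHIF arrays A and D). This was on 1 of its 2 probe sets, and their mean differed by 0.089 (adjusted p = 0.132). ATE1, the arginyltransferase that acts next, fell by 0.56 in shHIF cells (adjusted p = 3.44e-06) on 1 of its 4 probe sets, and their mean differed by -0.16 (adjusted p = 0.0688).

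**Figure D4:**
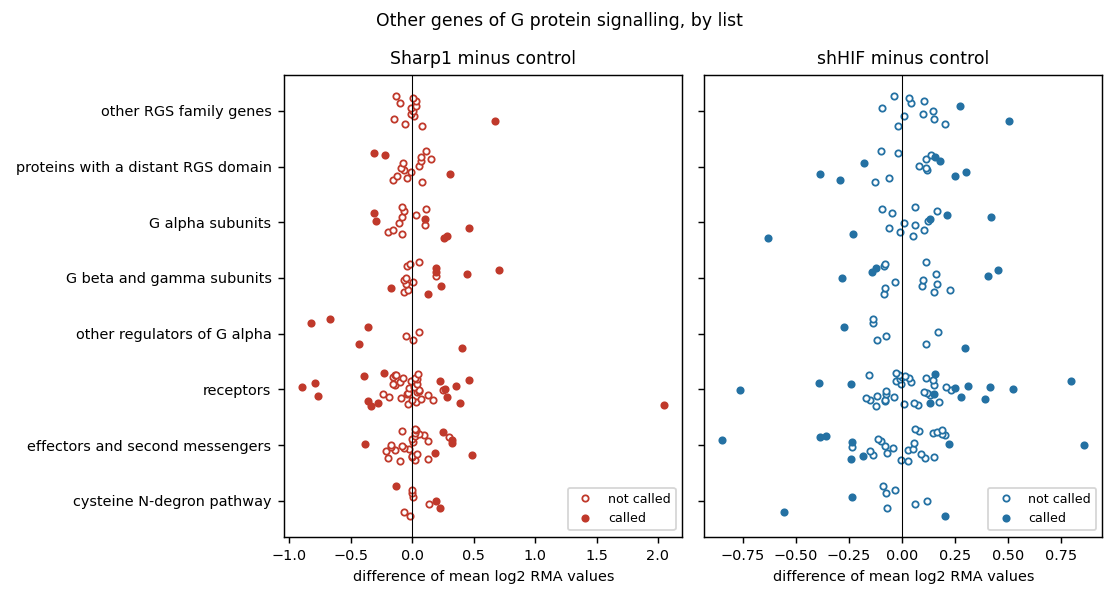
Difference of mean log2 values (x axis) for each measured gene of the 8 pathway lists (rows), for Sharp1 minus control on the left and shHIF minus control on the right; filled points were called by limma and the x axes have different ranges. Most genes lie near 0, and F2RL2 stands apart at 2.05 on the left.

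Over the 8 lists together, 27 of 154 genes measured rose and 19 fell in Sharp1 cells, and 25 rose and 20 fell in shHIF cells. These shares were near those of all genes, 15.3% and 11.8% in Sharp1 cells and 17.6% and 13.2% in shHIF cells. The median difference was -0.0050 and 0.037, beside -0.0018 and 0.047 over all genes. For Sharp1 against shHIF, 31 were higher and 32 lower, with a median of -0.060, beside -0.060 over all genes.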

How the data were processed

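The deposited log2 expression values, 1 per probe set and array, were made with RMA per the submitters' processing notes, which corrects background, normalizes between arrays and summarises probes. The sources used here do not give its version. RMA pulls arrays to a common distribution, so a shift of all transcripts would not be seen. Arrays carry no count depth, and their number limits precision. Array medians ran from 5.38 to 5.44.

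Probe sets were named from the platform annotation. Of 54675, 41097 had 1 symbol, 1801 several and 11777 were not named, and 41043 matched a gene ID in GRCh38.p14. Genes were represented by the probe set with the highest mean, which gave 19775. Suffixes s_at, a_at and x_at mark probe sets that can bind several transcripts. In R 4.3.3, limma 3.58.1 was fitted over all genes on all 12 arrays (eBayes with trend, Benjamini-Hochberg adjustment), and over all probe sets for the members. The script was tested on simulated data. Members and lists were chosen with earlier results of these data known. Named pathway genes were, per list and comparison, the called genes that rose most and fell most, up to 2 each way, and all called RGS genes. Some whose calls changed with the settings are not described. Of 165 entries, 11 were not analysed here. Promoters came from RefSeq and protein sequences were not used here.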

Additional observations from a re-analysis of the deposited data

Results flagged for a closer look

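Each group of 4 arrays was searched for a reading far from the other 3 on each of the 23 RGS probe sets. Of 69 groups, 3 had one, and chance flags about 5% of groups. RGS2 (202388_at) read 7.84 on shHIF array A, against 8.04 to 8.07 on the other shHIF arrays. That array had low spike-in signal, whose part in this reading was not tested. RGS3 (220300_at) read 5.30 on Sharp1 array C, against 4.87 to 4.94 on the other Sharp1 arrays. RGS10 (204316_at) read 6.80 on Sharp1 array B, against 6.90 to 6.91 on the others, and that array had low ribosomal RNA signal, whose part was not tested either.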

How the results depend on the processing

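Each comparison was recomputed under 20 other settings. These were array centring, the mean of all probe sets of a gene, no dim genes, no trend, the compared groups alone, array weights, a replicate block, each array left out and shHIF arrays A and D left out. No count of calls moved by over 1.5 times. Leaving out 1 array gave 4770 to 5644 calls over all genes for Sharp1 against control (5370 with all arrays), 5142 to 6402 for shHIF against control (6095) and 6849 to 7851 for Sharp1 against shHIF (7588). Pathway genes called in these comparisons ran from 40 to 50, 34 to 46 and 57 to 64 (46, 45 and 63). With the replicate block, although deviations of same-lettered arrays correlated at only -0.18 to 0.14 and the letters are not taken as a pairing, 5186, 5897 and 7373 genes were called, 45, 42 and 64 of them pathway genes. Averaging all probe sets of a gene turned the sign of some called differences of members and named pathway genes. These were RGS3 in shHIF against control (0.11), RGS20 in Sharp1 against shHIF (-0.091), CCDC88A in shHIF against control (0.048) and UBR1 in Sharp1 against shHIF (-0.11). Member differences that were not called were not checked for a turned sign, so this list is not complete for the members. Of 540 recomputed member differences, 14 others moved by more than the spread between arrays, 12 of them under that averaging. The 2 turned signs of RGS3 and RGS20 given above are not among these 14. Without shHIF A and D, RGS4 in shHIF against control was 0.16. Of 78 called pathway results, 29 kept their sign but lost their call under at least 1 setting. The turned CCDC88A and UBR1 differences given above lost theirs too (limma adjusted p = 0.568 and 0.0887) and are not among these 29.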
